A study of Mus musculus with 12 samples.

Results

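The genes described here are the clustered replication-dependent histone genes of the mouse, taken as every protein-coding gene of the GENCODE M21 annotation (mm10) whose symbol begins with Hist1h, Hist2h, Hist3h or Hist4h. There were 67 of them among 21938 protein-coding genes on chromosomes 1 to 19, X and Y. Of these, 6 encode the linker histone H1, 18 encode H2A, 18 encode H2B, 12 encode H3 and 13 encode H4. The Hist1 genes lie on chromosome 13 in 4 separate blocks of 18, 5, 29 and 2 genes, the Hist2 cluster holds 10 genes on chromosome 3, the Hist3 cluster 2 genes on chromosome 11 and Hist4 a single gene on chromosome 6. A further 3 annotated histone pseudogenes were left out.

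Replication-dependent histone genes supply the core and linker histones that package newly copied DNA, and their transcripts accumulate mainly in S phase. The factor NPAT, a substrate of cyclin E and CDK2, gathers at the clusters in nuclear foci called histone locus bodies and activates them. Their mRNAs end in a conserved stem-loop in place of a poly(A) tail, which the protein SLBP binds. Myoblasts leave the cell cycle when they differentiate, and replication-dependent histone transcripts are low in cells that no longer replicate their DNA. H3K4me3 is a histone mark found at the promoters of transcribed genes, and MBD2 is a methyl-CpG binding protein of the NuRD chromatin remodelling complex that has also been mapped at unmethylated CpG-rich promoters.

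Both were mapped by CUT&RUN, which uses an antibody to direct a nuclease to chromatin and sequences the released fragments, in C2C12, an established line of mouse myoblasts that fuse in low serum. The 4 cell states were day 0 cells, day 1 cells, day 5 myotubes, which are the fused cells, and day 5 reserve cells, which stay mononucleated. All states share the same line and no genetic change is given, and differentiation took place in medium with 2% horse serum. Each antibody had 1 library per state, so no difference between states has a replicate check, no p-value is given, and intervals on shares are exact Clopper-Pearson 95% intervals that cover counting error only. Intervals over genes treat each gene as independent, although neighbours often share a peak, so they are likely too narrow. The 4 IgG samples were not analysed here.

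The 8 peak lists differed in length. For H3K4me3 there were 19218 peaks in day 0 cells, 17665 in day 1 cells, 26034 in myotubes and 15920 in reserve cells. For MBD2 there were 14948, 452, 288 and 111. The depth of the libraries is unknown. Among marker genes fixed for the cell states, 0, 8, 8 and 7 of 8 muscle differentiation genes carried H3K4me3 at the promoter in that order, as did 5, 5, 4 and 5 of 5 cell cycle genes and 6, 6, 5 and 6 of 6 myoblast and reserve cell genes. Of 5 markers of other cell types (Ptprc, Pecam1, Adipoq, Alb and Sox10), the endothelial gene Pecam1 had a promoter peak at day 1, and all 5 were without one in the other states.

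Many of these genes stand in divergent pairs. There were 13 pairs of members, 26 genes, whose starts face away from each other within 1 kb, and the distance between the starts ran from 176 bp in the pair of Hist1h2ae and Hist1h2bg to 660 bp in the pair of Hist1h2bh and Hist1h3f. The sequences below are from promoters with MBD2 at day 0 and from a testis pair with no promoter peak in any library. Whether MBD2 or H3K4me3 depends on these sequences was not tested. They come from the GRCm38 assembly, the genome behind mm10, with each CpG in capitals, and they stop short of the annotated starts. The first is the whole stretch between the starts of Hist1h2ag and Hist1h2bj (chr13:22042945-22043213), and the second that between Hist1h2bq and Hist1h2ao (chr13:21810198-21810464), both on the forward strand. The third lies between the testis genes Hist1h2ba and Hist1h2aa (chr13:23934160-23934459, forward strand). The last are the 200 bases before the start of Hist1h2bm (chr13:21721844-21722043, forward strand) and of Hist1h3e (chr13:23562370-23562569, reverse strand).
Hist1h2ag and Hist1h2bj: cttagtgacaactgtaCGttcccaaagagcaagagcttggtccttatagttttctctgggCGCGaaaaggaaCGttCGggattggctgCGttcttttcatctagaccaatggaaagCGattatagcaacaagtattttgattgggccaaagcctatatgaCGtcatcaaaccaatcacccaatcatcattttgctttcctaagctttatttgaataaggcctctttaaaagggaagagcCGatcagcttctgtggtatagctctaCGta
Hist1h2bq and Hist1h2ao: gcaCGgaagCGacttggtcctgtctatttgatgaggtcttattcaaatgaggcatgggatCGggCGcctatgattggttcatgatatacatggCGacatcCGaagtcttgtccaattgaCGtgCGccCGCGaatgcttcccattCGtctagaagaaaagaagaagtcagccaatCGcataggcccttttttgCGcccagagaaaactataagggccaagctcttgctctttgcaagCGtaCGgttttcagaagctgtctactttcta
Hist1h2ba and Hist1h2aa: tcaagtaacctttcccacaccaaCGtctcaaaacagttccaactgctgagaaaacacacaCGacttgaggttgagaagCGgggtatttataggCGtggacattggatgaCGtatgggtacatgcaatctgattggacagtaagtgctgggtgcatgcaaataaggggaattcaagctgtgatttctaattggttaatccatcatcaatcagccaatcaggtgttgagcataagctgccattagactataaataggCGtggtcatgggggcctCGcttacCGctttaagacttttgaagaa
Hist1h2bm: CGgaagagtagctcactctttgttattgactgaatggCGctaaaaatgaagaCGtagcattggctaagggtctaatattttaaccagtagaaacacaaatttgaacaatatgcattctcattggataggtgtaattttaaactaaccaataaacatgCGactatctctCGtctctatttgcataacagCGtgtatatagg
Hist1h3e: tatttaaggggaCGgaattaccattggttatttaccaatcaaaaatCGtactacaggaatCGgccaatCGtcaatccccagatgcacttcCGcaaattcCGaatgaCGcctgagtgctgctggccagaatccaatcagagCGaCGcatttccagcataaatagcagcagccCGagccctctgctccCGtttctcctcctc
The stretch between Hist1h2ag and Hist1h2bj holds 10 CpG and 5 CCAAT boxes, and that between Hist1h2bq and Hist1h2ao holds 15 CpG and 3 CCAAT boxes. The stretch between the testis genes holds 8 CpG in 300 bases, with 4 CCAAT boxes, 2 TATA boxes and 1 octamer. The 200 bases before Hist1h2bm hold 6 CpG, 3 CCAAT boxes and 1 octamer, and those before Hist1h3e hold 11 CpG and 4 CCAAT boxes.

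Histone promoters were poor in G+C but not in CpG for their base composition. In the 250 bases before to 50 after the start, the median G+C share was 45.3% in the 67 genes, against 55% over all protein-coding genes and 60% over those with H3K4me3 at day 0. The median ratio of observed to expected CpG was 0.75 in the histone genes, against 0.525 over all genes and 0.749 over those with H3K4me3. Letters of the known promoter elements were searched in the same window on both strands. The CCAAT box (CCAAT) was in 83.6% of histone promoters, against 39.01% of all protein-coding promoters, and the TATA box (TATAAA) in 55.2%, against 12.6%. CCAAT was in all 18 H2A and all 18 H2B promoters and in 30.8% of the H4 promoters. The octamer (ATTTGCAT), which the factor OCT1 binds at H2B genes, was in 22.4%, against 1.57% of all promoters, with 7 H2A and 8 H2B promoters and none of H1, H3 or H4. The H1 box (AAACACA) was in 4 of 6 H1 promoters and 13.4% of all histone promoters, against 6.40% of all protein-coding promoters. Matches of different motifs may share bases, and a match describes letters only.

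The mRNA stem-loop was found for most members. Within 150 bases after the coding end, 38 genes had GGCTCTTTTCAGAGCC and 9 had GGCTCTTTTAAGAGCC, a further 13 had another form of the consensus, and 7 had none in that window (Hist2h2be, Hist1h2an, Hist1h2bp, Hist1h2bq, Hist1h2br, Hist1h3g and Hist1h4a). The search began at the outermost annotated coding end. For Hist1h2bp, Hist1h2bq and Hist1h2br that end lies much farther from the coding start than in the other H2B genes. The bases after a coding region of the usual H2B length were therefore not searched there, and a stem-loop at that place was not tested. The testis genes Hist1h1t, Hist1h2aa and Hist1h2ba also had a stem-loop.

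Near-identical copies limit what a short read can tell. Of the 100-base stretches within 1 kb of the starts, the median member had 87.7% that occur nowhere else in the genome. That share was 100% for 8 members, at least 90% for 29 members and 0 for Hist1h2bq, Hist1h2ao, Hist1h2ap and Hist1h2br, the genes of a duplicated segment. Their neighbours Hist1h4m and Hist1h4n had 15.1% and 19.3%. Values for those 4 genes are uncertain as to which copy they come from, and values for Hist1h4m and Hist1h4n are largely so. The duplicated Hist2h3c1 and Hist2h3c2 had 27.3% and 28.3%, and Hist2h2aa1 and Hist2h2aa2 had 52.1% and 49.2%.

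Nearly all of these promoters overlapped an H3K4me3 peak in every state, including the myotubes. A gene counted as marked when a peak came within 1 kb of an annotated start of it. The number marked was 64, 64, 64 and 62 of 67 in day 0 cells, day 1 cells, myotubes and reserve cells. That is 95.5% (interval 87.5% to 99.1%) in the first 3 states and 92.5% (83.4% to 97.5%) in reserve cells, beside 56.5%, 56.2%, 57.3% and 54.8% of all protein-coding genes. The H3 and H4 genes were all marked in every state, 12 and 13 of them. The size of the excess over all genes depends on this rule. With the peak summit required within 1 kb, 39, 42, 44 and 45 members were marked in the order of the states. Those shares are 58.2%, 62.7%, 65.7% and 67.2%, beside 49.95%, 51.8%, 53.3% and 52.3% of all protein-coding genes.

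**Figure D1:**
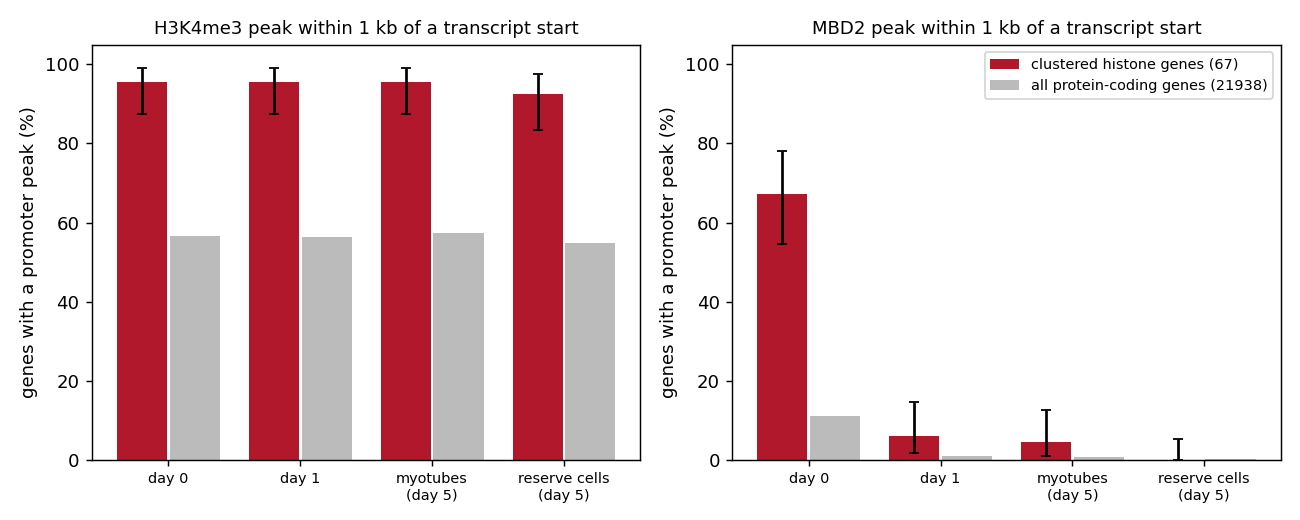
Percent of genes (vertical axis) with an H3K4me3 peak (left) or an MBD2 peak (right) within 1 kb of a transcript start, by cell state, for the 67 clustered histone genes (red, with exact 95% intervals for counting error) and all 21938 protein-coding genes (grey). H3K4me3 is at 92.5% or more of histone genes in each state, and MBD2 is at 67.2% of them at day 0 and at 5.97% or fewer afterwards.

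The 3 genes without H3K4me3 in any state were Hist1h1t, Hist1h2aa and Hist1h2ba. They encode the testis-specific linker histone H1t and the testis forms of H2A and H2B, which replace the ordinary histones in developing sperm. The start of Hist1h1t lay 1387, 1722, 1012 and 1494 bp from the nearest H3K4me3 peak in day 0 cells, day 1 cells, myotubes and reserve cells. It stands inside the third Hist1 block among marked genes. The pair of Hist1h2ba and Hist1h2aa stands apart from the rest of the cluster, and the distance from the start of Hist1h2ba was 169448, 169725, 7654 and 169873 bp in the same order. Both have CCAAT and TATAAA letters and the octamer in their promoters, so those letters are also present where no H3K4me3 was called. Their ratio of observed to expected CpG was 0.455 for Hist1h2ba and 0.578 for Hist1h2aa, below the histone median of 0.75, and Hist1h1t had 0.449.

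With any overlap of a peak counted, no histone gene gained H3K4me3 at the promoter relative to day 0, and 2 lost it, both in reserve cells. Against day 0, a gain was called at 0 of the 3 unmarked members in day 1 cells, myotubes and reserve cells, beside 1.72%, 5.33% and 1.38% of all genes unmarked at day 0. A loss was called at 0, 0 and 2 of 64, beside 1.86%, 2.77% and 4.12% of all genes marked at day 0. The share lost in reserve cells, 3.12%, is near that background. The 2 genes were Hist3h2ba, an H2B gene, and Hist1h1d, a linker histone gene. Hist3h2ba had 387, 244, 226 and 0 covered bases of its 2001 promoter bases in day 0 cells, day 1 cells, myotubes and reserve cells, and its fold enrichment of 12.1, 10.9 and 5.31 was the lowest of the marked histone genes in those 3 libraries. Hist1h1d had 409, 11, 114 and 0 covered bases. Its annotated start lies 1828 bp before its coding start, and around the coding start itself it had 1761, 1839, 1903 and 1692 covered bases. The loss at Hist1h1d therefore concerns the annotated start and not the coding region. These counts depend on how a call is made. A stricter rule counted a peak only when its summit lay within 1 kb of the start. By it, 10, 14 and 13 of 28 members gained a call against day 0 in day 1 cells, myotubes and reserve cells. The shares over all genes were 6.93%, 11.5% and 9.75%. Losses then numbered 7, 9 and 7 of 39, beside 3.3%, 4.89% and 5.07%. All of these gains were at promoters that a day 0 peak already overlapped, and the promoters lost at day 1 and in myotubes were still overlapped there. Such changes therefore concern where the summit of an often shared peak lay, not whether the promoter was covered.

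The marked histone promoters were covered nearly from edge to edge. Over all 67 members, with unmarked ones counted as 0, the median promoter had 100%, 100%, 96.7% and 95.7% of its bases under H3K4me3. The order is day 0 cells, day 1 cells, myotubes and reserve cells. Over all protein-coding genes, unmarked ones included, the medians were 41.7%, 38.3%, 39.3% and 32.8%. Over the marked protein-coding genes alone they were 84.0%, 79.5%, 78.8% and 75.1%. The promoter was wholly covered at 54, 45, 33 and 29 members, beside 17.2%, 13.8%, 12.9% and 9.75% of all protein-coding genes. Fewer covered bases than at day 0 were found at 17, 27 and 34 of 64 members in day 1 cells, myotubes and reserve cells, beside 54.7%, 54.2% and 72.4% of all genes. A promoter that is wholly covered at both times cannot show a difference within this window, and 45, 33 and 29 members were equal to day 0. The median fold enrichment, the authors' ratio of fragments at the summit to the local background, was 42.9, 49.8, 40.9 and 40.1 at the members and 46.9, 56.7, 35.6 and 53.3 over all marked genes. The median fold at the members was below that of all marked genes in the day 0, day 1 and reserve cell lists and above it in myotubes.

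Few members had at least 1.5 times fewer covered promoter bases than at day 0. There were 2, 4 and 4 in day 1 cells, myotubes and reserve cells, beside 4.46%, 7.37% and 10.1% of all genes with covered bases, and these shares of 3.12%, 6.25% and 6.25% do not exceed the background. Besides Hist1h1d and Hist3h2ba they were H4 genes. Hist1h4k had 2001, 2001, 1205 and 1733 covered bases in day 0 cells, day 1 cells, myotubes and reserve cells. Hist1h4b had 1179, 1128, 691 and 671, and Hist1h4f had 2001, 1542, 1632 and 1242. Hist1h4k was thus shortest in myotubes, Hist1h4f shortest in reserve cells and Hist1h4b short in both day 5 libraries. Among the linker histone genes, Hist1h1b had 2001, 1731, 1562 and 1509 covered bases, Hist1h1a 2001, 1766, 1885 and 1618, Hist1h1c 1821, 1799, 1666 and 1526, and Hist1h1e 1849, 1610, 1727 and 1675. All 4 were longest at day 0 and none lost its peak. No member had at least 1.5 times more covered bases than at day 0 in day 1 cells, myotubes or reserve cells, beside 1.9%, 5.83% and 1.5% of all genes. The gains in covered bases against day 0 were at most 70 bases, at Hist1h4c in myotubes, which had 1479, 1421, 1549 and 1421.

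Set against reserve cells, myotubes had more of the mark at some members, as they had at a larger share of all genes. H3K4me3 was called in myotubes and not in reserve cells at 2 of the 5 members unmarked in reserve cells, Hist1h1d and Hist3h2ba, beside 7.09% of all such genes, and the reverse at 0 of 62, beside 1.32%. These 2 genes were also the only members with at least 1.5 times more covered bases, beside 10.5% of all genes, and 0 members had at least 1.5 times fewer, beside 2.82%. Of 64 members, 26 had more covered bases in myotubes than in reserve cells, or 40.6%, beside 57.8% of all genes, 12 had fewer, beside 25%, and 26 had the same number. The largest excess in myotubes was at the H4 genes Hist1h4i, with 2001 bases in myotubes and 1562 in reserve cells, and Hist1h4f, with 1632 and 1242. The largest deficit was at Hist1h4k, with 1205 bases in myotubes and 1733 in reserve cells. Within 5 kb, 44 members had more bases in myotubes than in reserve cells and 20 fewer, beside 23.5% of all genes with fewer, and 0 members had at least 1.5 times fewer, beside 6.47%. At least 1.5 times more bases were covered there in myotubes at 8 of 64 members, beside 22.4% of all genes. With the summit required within 1 kb, 5 of 22 members were called in myotubes and not in reserve cells, beside 7.37%, and 6 of 45 the other way round, beside 4.86%, so the balance of calls turned.

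The H3 genes Hist1h3b, Hist1h3g and Hist1h3i also had shorter coverage at day 5. Hist1h3b had 2001, 2001, 1539 and 1914 covered bases in day 0 cells, day 1 cells, myotubes and reserve cells. Hist1h3g had 2001, 2001, 1569 and 2001, and Hist1h3i had 2001, 2001, 1773 and 1586. Hist1h3b and Hist1h3g were therefore short in the myotube library and Hist1h3i in both day 5 libraries. Hist4h4, the lone H4 gene of chromosome 6, had 2001, 1764, 1814 and 1667, and Hist3h2a had 2001, 1969, 2001 and 1883. In the Hist2 cluster, Hist2h2ab, Hist2h2ac, Hist2h2be, Hist2h3c1, Hist2h3c2, Hist2h2aa1 and Hist2h4 were wholly covered in all 4 libraries. The remaining members there, Hist2h2aa2, Hist2h3b and Hist2h2bb, had 1563 bases or more in each library.

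In a wider window, the mark covered fewer bases at all 64 marked histone genes at day 1 and in reserve cells, and at 58 of 64 in myotubes, than at day 0. Within 5 kb either side of the gene's 5′ end, the median histone gene had 6221, 4557, 4344.5 and 3779 bases under H3K4me3 in day 0 cells, day 1 cells, myotubes and reserve cells, against 2799, 2529, 2503 and 2215 over all marked genes. The share with fewer bases than at day 0 was 76.8%, 65% and 90.4% over all genes in day 1 cells, myotubes and reserve cells. The 6 members with more bases in myotubes than at day 0 were Hist2h2ab, Hist2h2ac and Hist2h2be under a shared peak, Hist1h2ac and Hist1h2bc, and Hist1h4c. At least 1.5 times fewer bases were covered at 7, 19 and 25 members, beside 9.31%, 17% and 24.5% of all genes, and the median ratio to day 0 was 0.833, 0.778 and 0.697, against 0.912, 0.909 and 0.788 over all genes. The widest coverage at day 0, 9352 bases, was around Hist1h2af, which had 8945, 6328 and 7009 in day 1 cells, myotubes and reserve cells. Hist1h2ah had 6896, 3664, 3853 and 2278 bases, and Hist1h2bg, the member with the highest ratio of reserve cells to day 0, had 6454, 6171, 6228 and 6287. These windows also hold the peaks of neighbouring genes. The median member had 2 other protein-coding starts within 5 kb, against 0 for all genes, and marked genes with at least 1 such neighbour had medians of 3423.5, 3075.5, 3072 and 2694 bases in the order of the states. The histone medians were higher than these in all 4 libraries. Marked genes with at least 3 such neighbours numbered 45 to 47 in a library, and 11 of them were histone genes themselves. Their medians were 4436, 4043, 5084.5 and 3598 bases, so in myotubes their median was above that of the histone genes.

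**Figure D2:**
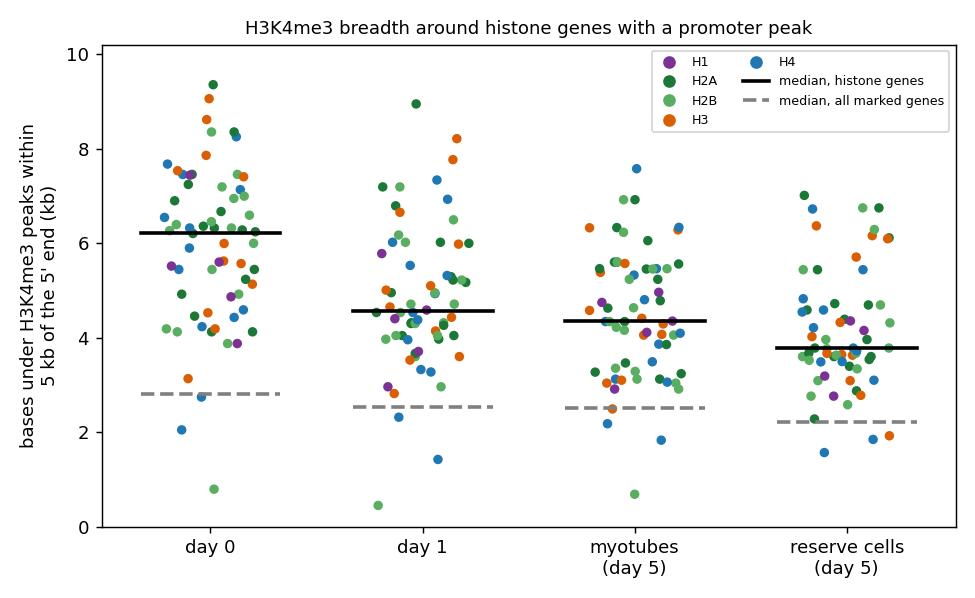
H3K4me3 breadth in kb (vertical axis), the bases under peaks up to 5 kb from the 5′ end, in the 4 cell states, with 1 point for each histone gene that had a promoter peak in that library, coloured by histone class, and bars for the median of these genes (black) and of all marked protein-coding genes (dashed grey). The histone median is 6221 bases at day 0 and 3779 in reserve cells, and it lies above the dashed bar in each state.

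Single H3K4me3 peaks ran across several histone genes. Of the 32, 34, 35 and 34 peaks that touched histone promoters in day 0 cells, day 1 cells, myotubes and reserve cells, 21, 19, 20 and 19 spanned at least 2 members. That is 65.6%, 55.9%, 57.1% and 55.9%, beside 11.6%, 11.4%, 11.2% and 11.5% of all promoter peaks that spanned at least 2 protein-coding genes. They covered 54, 49, 50 and 48 members, so most members shared their peak with a neighbour and their values are not independent. The peak over the most members held 5 genes in every state, Hist1h2ae, Hist1h2bg, Hist1h2bf, Hist1h2ad and Hist1h3d, in the third Hist1 block. It was 8352, 7189, 6918 and 6745 bp wide in the order of the states, starting with chr13:23569943-23578294 at day 0. The widest peak at day 0 measured 9481 bp and lay over Hist1h4h, Hist1h2af and Hist1h3g (chr13:23529555-23539035). The peak over these same genes measured 8361, 6328 and 7009 bp in day 1 cells, myotubes and reserve cells.

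Some of these shared peaks were separate peaks in the later lists. At day 0 a peak of 8632 bp (chr13:21714804-21723435) lay over Hist1h2bl, Hist1h2ai, Hist1h3h and Hist1h2bm. In day 1 cells, myotubes and reserve cells it ended after Hist1h3h, with widths of 4077, 3871 and 3894 bp, and Hist1h2bm had a peak of its own. Hist1h4k shared a peak with Hist1h2ak and Hist1h2bn at day 0 (8014 bp) and at day 1 (7037 bp). In myotubes and in reserve cells the pair of Hist1h2ak and Hist1h2bn had a peak of 1916 and 2197 bp without it. Hist1h1b and Hist1h3i were under 1 peak of 7246 bp at day 0 and under separate peaks in the other states. Hist1h4f and the annotated start of Hist1h1d were joined at day 0 (2268 bp) and in myotubes (1632 bp) and not at day 1 or in reserve cells. The peak over Hist1h4i, Hist1h2ag and Hist1h2bj measured 6590, 4314, 5451 and 2274 bp in the order of the states.

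The bases covered over whole clusters follow the same order for the first and the third block. Counting the genes and 5 kb on either side, the first Hist1 block had 47.6, 38.9, 31.6 and 30.6 kb under H3K4me3 in day 0 cells, day 1 cells, myotubes and reserve cells. The second block had 11.2, 7.43, 7.84 and 5.65 kb and the third 71.2, 59.7, 56.1 and 49.7 kb. The Hist2 cluster had 23.1, 19.4, 21.4 and 18.02 kb. Day 0 was the highest and reserve cells the lowest library in each of these clusters, while myotubes were above day 1 in the second block and in Hist2. The block with the testis pair had 0 covered bases in all 4 libraries. The 1478 kb between the second and the third block, which holds no member, was 3.94%, 2.50%, 3.62% and 2.01% covered, against 29.3%, 24.6%, 23.1% and 20.5% of the third block.

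**Figure D3:**
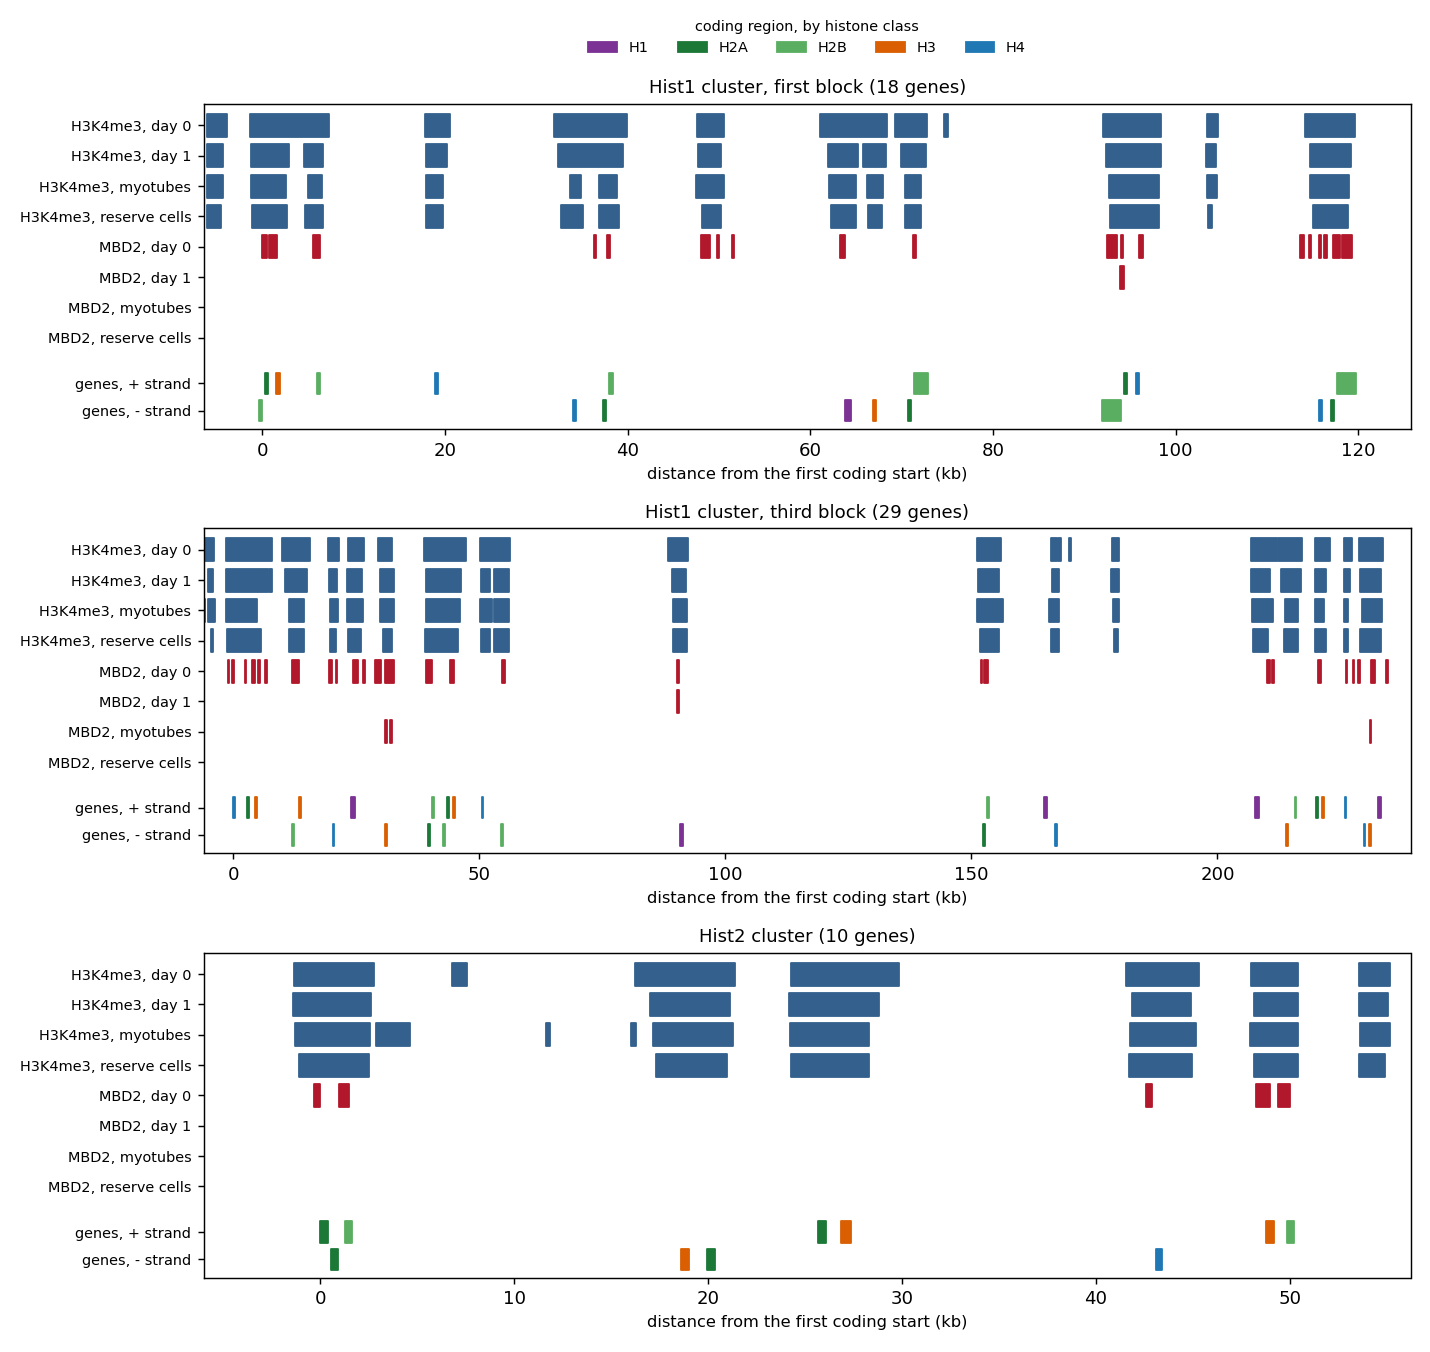
Maps of the first Hist1 block, the third Hist1 block and the Hist2 cluster, drawn to scale, with distance from the first coding start in kb on the horizontal axis. Blue bars are H3K4me3 peaks and red bars MBD2 peaks in the 4 cell states, and the lowest rows show the coding regions from first to last coding base on each strand, coloured by histone class. H3K4me3 peaks cover several genes at once and are mostly shorter in the day 5 rows, and narrow MBD2 peaks are scattered along the day 0 row and nearly missing from the later ones.

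MBD2 lay at most histone promoters in day 0 myoblasts. A peak was called at 45 of 67 members, or 67.2% (interval 54.6% to 78.2%), beside 11.1% of all protein-coding genes. In day 1 cells, myotubes and reserve cells it was called at 4, 3 and 0 members, beside 0.998%, 0.62% and 0.251% of all genes. The count of 0 of 67 allows a share of up to 4.48%, taking 3 counts of the total as the limit, and the exact interval reaches 5.36%. The 45 calls of day 0 rest on 38 peaks, 22 of which touched several members, so limits that treat genes as independent are likely too narrow. Among genes with H3K4me3 at the promoter, MBD2 was present at 45 of 64 histone genes at day 0, or 70.3% (57.6% to 81.1%), beside 19% of 12403 marked genes. Among promoters wholly under H3K4me3 it was at 40 of 54 histone genes, or 74.1% (60.3% to 85.0%), beside 26.8% of 3765. The share at histone genes was thus higher than at all genes with the same H3K4me3 coverage in this library.

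The same holds per H3K4me3 peak and per base. Of the 32 H3K4me3 peaks at histone promoters at day 0, 23 held an MBD2 peak, which is 71.9% (53.3% to 86.3%), beside 20.2% of the 11533 promoter peaks of all genes. MBD2 covered 18.7% of the 146 kb under those 32 peaks, against 3.32% of the bases under all promoter peaks. The density was 0.322 MBD2 peaks per kb of H3K4me3, against 0.0789 over all. The 4 members of the duplicated segment with no unique stretch all had MBD2. Among the 29 members with at least 90% unique sequence, 18 had MBD2, or 62.1%, and among the 38 below that share, 27 had it.

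There were 38 MBD2 peaks at histone promoters at day 0, and all 38 overlapped an H3K4me3 peak of the same state. Their median width was 543.5 bp, against 367 bp for all promoter MBD2 peaks of that list, and their fold enrichment ran from 3.59 to 16.7 with a median of 6.45. They were of ordinary height, since the median peak stood at percentile 56.5 of fold among all day 0 MBD2 peaks and the highest at percentile 96.3. The fragments over the summit numbered 4 to 29 with a median of 8, and a count of 8 has an exact Poisson 95% interval of 3.45 to 15.8. The summit lay upstream of the nearest member's start in 16 peaks, between a pair of divergent starts in 7, in transcribed but not coding sequence in 7, in coding sequence in 4 and downstream in 4. It was within 500 bp of the nearest start in 28. In the 250 bases either side of the summit the median number of CpG was 17.5, against 27 around the summits of MBD2 peaks at other promoters, and the median ratio of observed to expected CpG was 0.679 and 0.677.

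All core classes and H1 had members with MBD2 at day 0. It was at 3 of 6 H1 genes, 14 of 18 H2A genes, 13 of 18 H2B genes, 8 of 12 H3 genes and 7 of 13 H4 genes. The median fold enrichment of the strongest promoter peak was 8.38, 8.09, 10.03, 12.3 and 5.15 in the same order of classes. The H4 genes reached at most 6.62, at Hist1h4h, and of the 8 H3 genes only Hist1h3b, with 6.44, was below that value. By location it was at 15 of 18 genes of the first Hist1 block, 3 of 5 of the second, 20 of 29 of the third, 6 of 10 Hist2 genes, 1 of 2 Hist3 genes (Hist3h2a, fold 6.45) and not at Hist4h4. In the Hist2 cluster it was missing from the duplicated Hist2h3c1, Hist2h3c2, Hist2h2aa1 and Hist2h2aa2, and it reached 12.2 at Hist2h3b and Hist2h2bb.

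**Figure D4:**
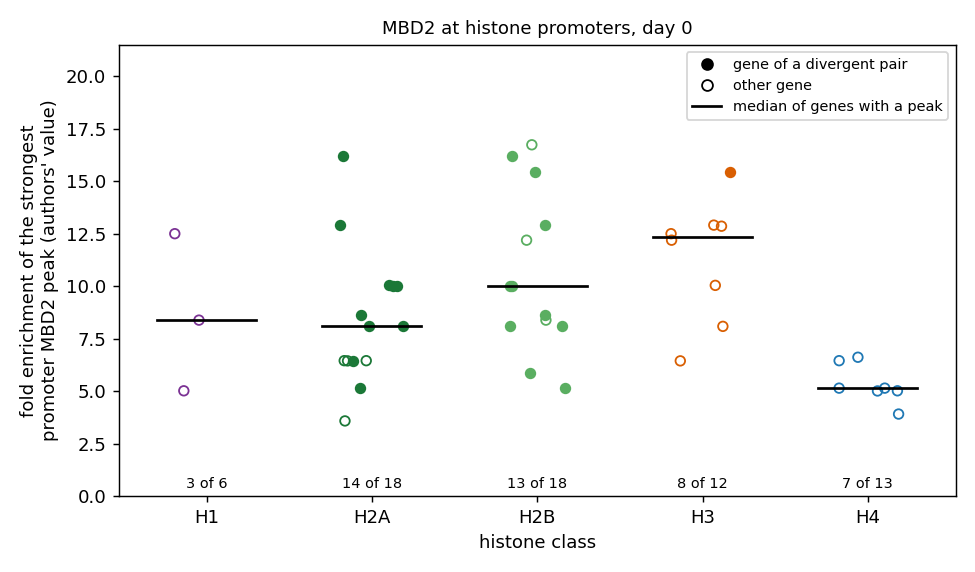
Fold enrichment of the strongest MBD2 promoter peak at day 0 (vertical axis, the authors' ratio) for each histone gene with such a peak, by histone class, with genes of divergent pairs as filled and others as open circles and the median as a bar. The numbers at the bottom give genes with a peak of all genes in the class, and the H4 median of 5.15 is the lowest and the H3 median of 12.3 the highest.

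MBD2 was at 21 of 26 genes of divergent pairs and at 24 of 41 other members. With the H2A gene Hist2h2ab counted too, which shares a divergent promoter with the non-histone gene Bola1, 22 of 25 marked histone genes with a divergent protein-coding neighbour had MBD2, or 88%, against 448 of 1867 such genes in all, or 24.0%. Genes that share a promoter also share its peak.

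The strongest peak within 1 kb of an annotated start lay at the H2B gene Hist1h2bm, with a fold enrichment of 16.7, 29 fragments and its summit 55 bp before the start (chr13:21721669-21722524), within the stretch shown above. The next lay over the stretch shown between Hist1h2ag and Hist1h2bj (chr13:22042790-22044044), with a fold of 16.2 and its summit 116 bp before the start of Hist1h2bj. The third, with a fold of 15.4, lay between Hist1h2bh and Hist1h3f (chr13:23542992-23544539). Hist1h3e had 12.9, with the summit 146 bp before its start. All 4 summits lay before the starts, while the peaks themselves reached into coding sequence. The whole coding regions of Hist1h2bm, Hist1h2bj and Hist1h3e were covered. A stronger MBD2 peak of the clusters, with a fold of 18.1 and 30 fragments, lay at Hist1h1d and outside that window (chr13:23555418-23556528). It began within the coding region, and its summit was 1280 bp after the coding start, past the end of the 663 bp of coding sequence. Other H3 genes with a fold of 12 or more were Hist1h3g with 12.9, Hist1h3a with 12.5 and Hist2h3b with 12.2. In the linker histone genes, MBD2 was at Hist1h1a (12.5, a peak shared with Hist1h3a), Hist1h1e (8.38) and Hist1h1b (5.02). The lowest fold among the members was 3.59, at Hist1h2af, with 4 fragments.

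The 19 marked members without MBD2 at day 0 had H3K4me3 all the same. They include the H4 genes Hist1h4c, Hist1h4d, Hist1h4j, Hist1h4k and Hist4h4 and the linker histone genes Hist1h1c and Hist1h1d. Also among them are the whole divergent pair of Hist1h2ah and Hist1h2bk, and the neighbours Hist1h3c and Hist1h2bb, which share an H3K4me3 peak. Hist1h1d is among them by its annotated start, and within 1 kb of its coding start it had 673 bases under the peak of fold 18.1. The median ratio of observed to expected CpG was 0.792 in the 45 members with MBD2 and 0.734 in these 19, and the median number of CpG in the promoter was 12 and 11.

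The MBD2 peaks that remained after day 0 were few. At day 1 there was 1 over the stretch shown between Hist1h2bq and Hist1h2ao (fold 6.997, 8 fragments), which lies in the duplicated segment, and 1 at Hist1h1e and the annotated start of Hist1h2be (fold 6.67, 9 fragments). The annotated start of Hist1h2be lies 35168 bp before its coding start and next to Hist1h1e, so this peak belongs to the neighbourhood of Hist1h1e. In myotubes Hist1h3e had 2 peaks, with folds of 6.19 and 4.29, and a peak of fold 4.29 lay over the start of Hist1h3a. The peak at Hist1h3a also came within 931 bp of the start of Hist1h4a and covered 70 bases of its promoter, so it was called there too. All 5 of these peaks overlapped an MBD2 peak of day 0 and an H3K4me3 peak of their own state. Among the 45 members with MBD2 at day 0, the peak was lost at 41, 43 and 45 in day 1 cells, myotubes and reserve cells, beside 91.6%, 96.1% and 98.2% of all genes with MBD2 at day 0. The shares of 91.1% and 95.6% at day 1 and in myotubes are near that background. A gain against day 0 was called at 0, 1 and 0 members in day 1 cells, myotubes (Hist1h4a) and reserve cells, beside 0.0718%, 0.215% and 0.0564% of all genes without MBD2 at day 0. The gain at Hist1h4a is the edge of the peak at Hist1h3a, a gene that had MBD2 at day 0.

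The later MBD2 lists are also short, which limits what these counts can show. The lowest summit count in a list was 4, 5, 7 and 8 fragments in day 0 cells, day 1 cells, myotubes and reserve cells. Of the 38 histone peaks of day 0, 36, 26 and 24 had at least as many fragments as the lowest peak of day 1, of myotubes and of reserve cells. Because the depth of the libraries is unknown, these counts cannot tell whether such peaks would be called in a later list. When each MBD2 list was cut to its 111 strongest peaks by q-value, 0, 0, 1 and 0 members had MBD2 in the order of the states. Of all protein-coding genes, 0.292%, 0.365%, 0.26% and 0.251% had it in these cut lists. With so few promoters called, counts of 0 or 1 among 67 members cannot tell whether the excess at day 0 holds at equal list length. With 1 library per state, a difference between the cells and a difference between the libraries cannot be told apart.

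Genes that make other histones, and those that serve the clustered ones, were marked in every state. The genes listed as replication-independent encode histone variants whose use is not limited to S phase. They had H3K4me3 at 11 of 11 in all 4 libraries, beside 56.5% of all protein-coding genes at day 0. MBD2 was at 5 of 11 at day 0, beside 11.1% of all. These were H1fx (fold 8.09), H2afx (4.41), H2afv (7.07), H2afj (8.94) and H3f3b (10.5), and none had MBD2 later. Their median H3K4me3 breadth within 5 kb was 4208, 3071, 2841 and 2978 bases in the order of the states. The factors of histone gene transcription and mRNA processing had H3K4me3 at 22 of 22 in all 4 libraries, with medians of 3161.5, 2687, 2555.5 and 2366 bases. Npat itself had 4197, 3568, 3013 and 3396 bases and no MBD2. MBD2 was at 3 of the 22 at day 0, a share near the 11.1% of all genes, namely Slbp (4.41), whose product binds the stem-loop, Casp8ap2 (4.30), whose product is a component of histone locus bodies, and the cell cycle factor gene E2f1 (5.74).

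Histone chaperone genes were likewise marked at 15 of 15 in all 4 libraries, with medians of 3478, 2718, 2111 and 2144 bases. MBD2 was at 4 of 15 at day 0, beside 11.1% of all genes and 45 of 67 clustered histone genes. Asf1b, which hands H3 and H4 to the replication machinery, had a fold of 35.0, above every clustered histone gene, and the 1 promoter MBD2 peak of these 3 lists after day 0, with 8.98 at day 1. Chaf1a, the large subunit of the CAF-1 complex that deposits histones at replication, had 7.16, Nap1l1, a chaperone of H2A and H2B, 10.04, and Tonsl, which binds new H4 behind the fork, 4.22. Within 5 kb, Chaf1a had 5081, 3785, 2490 and 3301 bases in day 0 cells, day 1 cells, myotubes and reserve cells, and Nap1l1 had 4577, 2432, 1812 and 1849. Both were longest at day 0.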

How the data were processed

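CUT&RUN peaks of MBD2 and H3K4me3 were analysed in 8 of 12 samples. Trim Galore, Bowtie2, SAMtools and MACS2 and the mm10 build are named in the submitters' processing notes, and their versions, the MACS2 settings, the treatment of reads with several placements and the use of the IgG libraries are not stated there. One list was deposited for each library. Per the file headers, the authors give a pileup per peak, a signal that counts fragments at the summit, and a fold enrichment, a ratio over local background. The authors' −log10 p-value and q-value columns carry damaged names, and the usual column order of MACS2 told them apart. None of these values is compared between lists as a level, apart from the day 0 MBD2 fragment counts set beside the lowest counts of the later lists.

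Genes and starts came from GENCODE M21 basic. A promoter was the 1 kb either side of every annotated start, called with at least 1 bp of overlap, and a gene counted as shortened with at least 1.5 times fewer covered bases. Peaks lay within the GRCm38 chromosomes, and all 67 coding starts read ATG there. Python 3.11.15 with pandas 2.3.3 and scipy 1.17.1 was used, and the promoter counting was tested on simulated peaks. With 1 library per group there is no test. Equal lists by q or fold, other windows, overlaps and starts were tried as alternatives.

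Members and gene lists were chosen with earlier results of these data known. Named with values are members unmarked in any library or with MBD2, the extremes of coverage and of its differences between states, members of the widest shared peaks, and partner genes with MBD2. Zcchc6 of the processing list was not found in the annotation.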

Additional observations from a re-analysis of the deposited data

How the results depend on the processing

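Of 236 recomputed values under 12 alternative settings, 189 stayed within 1.5 times the reported count or within an interval around the reported percent. For median coverage that interval treats the percent as a share of genes, so it does not measure the spread of the median. Some values could hardly move, such as those from the gene's 5′ end alone, since few members have several annotated starts. The 189 are therefore a tally and not a measure of stability. The balance of H3K4me3 gains and losses was turned when the summit had to lie in the window. That of MBD2 calls between day 0 and myotubes was turned with equal lists, but on counts of 0 and 1. The 47 others are as follows, with 2 of the settings, coding starts and unique promoters for MBD2, chosen after seeing the data. With lists cut to equal numbers of peaks, 111 for MBD2, the members with MBD2 numbered 0 at day 0, 0 at day 1 and 1 in myotubes. The counts were the same by q-value, beside 0.292%, 0.365% and 0.26% of all genes, and by fold, beside 0.333%, 0.41% and 0.264%. With −log10 q of at least 10 the members with MBD2 numbered 23 at day 0 and 0 at day 1 and in myotubes, beside 3.05%, 0.365% and 0.0866% of all genes. Windows of 500 bp and 2 kb, an overlap of 200 bp and summits inside the window gave 40, 49, 43 and 42 members with MBD2 at day 0, and coding starts 46.

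For H3K4me3, requiring the summit inside the window left 39 members marked at day 0 and 42 at day 1. Those shares are 58.2% and 62.7%, beside 49.95% and 51.8% of all genes. Against day 0 there were then 10 gains and 7 losses at day 1, 14 and 9 in myotubes and 13 and 7 in reserve cells. All of these gains were at promoters that a day 0 peak already overlapped. Myotubes against reserve cells gave 5 gains and 6 losses. Median coverage was 100% within 500 bp in both day 5 fractions, 89.4%, 79.9%, 72.3% and 70.0% within 2 kb in the order of the states, and 94.3%, 86.3% and 83.3% from day 1 on at promoters at least 90% unique. Shortened members within 500 bp numbered 1 in day 1 cells, 1 in myotubes and 1 in reserve cells against day 0. Within 2 kb they numbered 4, 13 and 13, with 1 in myotubes against reserve cells, and with coding starts there was 1 in day 1 cells. The 2 losses in reserve cells, which are the 2 gains of myotubes against reserve cells, became 1 loss with 500 bp, 2 kb or coding starts, and 1 gain with 500 bp, 2 kb, an overlap of 200 bp or equal lists by fold. An overlap of 200 bp gave 1 loss at day 1 and 1 in myotubes, equal lists by fold 1 in myotubes, and coding starts 1 gain in myotubes. No paired analysis was possible because each antibody and state has 1 library and no result comes from a test. Depth is unknown, and the low MBD2 fragment counts limit the later lists.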
